A study of Mus musculus with 6 samples.

Results

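The genes described here are the 10 that encode the membrane-bound stress sensors of the endoplasmic reticulum (ER), the transcription factors made from or with them, and the proteases that release those factors. They are Atf6, Atf6b, Ern1, Xbp1, Eif2ak3, Creb3, Creb3l1, Creb3l2, Mbtps1 and Mbtps2. They were taken by name from 43271 genes of a deposited count table, and earlier results of these data were known then. All 10 passed the filter on low counts, as 14101 genes did in all. RNA was sequenced from primary endothelial cells of brain microvessels of wild-type C57BL/6 mice, a cell type whose tight layer separates blood from brain tissue. Confluent cultures had received dolutegravir, an HIV integrase inhibitor (DTG, 5000 ng/ml for 24 h, 3 libraries), or its vehicle dimethyl sulfoxide (DMSO, 24 h, 3 libraries). Cultures of both groups were between passages 2 and 6 and grew in medium with 5% serum, growth factors and hydrocortisone, so that no group represents endothelium in its tissue. The series title places the question in ER stress and the barrier.

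Unfolded proteins in the ER are sensed by transmembrane proteins that are held inactive by the chaperone BiP. IRE1 (encoded by Ern1) is a kinase and endoribonuclease that cuts the Xbp1 mRNA, PERK (Eif2ak3) is a kinase that slows translation by phosphorylating eIF2-alpha, and ATF6 travels to the Golgi apparatus. There the site-1 protease (Mbtps1) and then the site-2 protease (Mbtps2) cut ATF6 and its relatives ATF6B, CREB3, CREB3L1 and CREB3L2, and the freed part enters the nucleus as a basic leucine zipper factor. The mRNA level of a sensor is not a measure of its activation, which rests on dimerization, phosphorylation, transport and cleavage of the protein.

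The step that IRE1 catalyses is shown by the coding transcripts of mouse Xbp1 in the GENCODE reference (GRCm38). In all 3 coding transcripts the same stretch of 26 bases lies between a pair of cut sites of the form CNGCAGN, which are the letters CCGCAGC and CTGCAGC. Removal of this stretch shifts the reading frame and gives the active factor XBP1s. The sequence below is written 5′ to 3′ with 20 bases on each side, and capitals mark the removed stretch.
Xbp1: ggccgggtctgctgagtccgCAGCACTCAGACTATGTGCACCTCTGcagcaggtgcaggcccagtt
A count per gene takes in reads from the cut and the uncut form alike, so the Xbp1 values given here are of both forms together.

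The 6 libraries held between 41162353 and 56316335 counts. Levels are in CPM, the usual counts per fixed library total after TMM scaling of the library sizes, and a change is the log2 ratio of DTG over DMSO from edgeR's quasi-likelihood test, with Benjamini-Hochberg adjustment across the 14101 genes and calls at an adjusted p under 0.05. Library names carry a tag, P4 or P5, that the labels do not define. DTG replicates 2 and 3 and DMSO replicate 1 carry P4, and DTG replicate 1 and DMSO replicates 2 and 3 carry P5. Each of the 6 libraries deviated from its group mean most like a library of its own tag in the other group. These correlations were 0.13 to 0.23, and the deviations within a group cancel out, so the 6 agreements are not independent. Changes within each tag are given beside the pooled ones. The library names also carry a number that the labels do not define. It is 2, 2 and 3 for DTG replicates 1, 2 and 3, and 1, 1 and 3 for DMSO replicates 1, 2 and 3. Libraries of a group that share this number may not be independent cultures. Whether the 3 libraries of a group are from different cultures is not stated in the labels, so the p-values reflect the spread among these samples alone, and that spread may be technical. All 8 endothelial markers were detected, with a sum of 5568 to 5915 CPM in DTG and 9400 to 10178 CPM in DMSO libraries, and 7 of the 8 were lower in DTG. Markers of 9 other cell types summed to at most 8.68 CPM in any DTG library and 29.5 CPM in any DMSO library. The highest sum was that of the fibroblast list in DTG and that of the microglia and macrophage list in DMSO. The fibroblast sum was mostly Pdgfra, at 6.79 ± 0.85 CPM in DTG and 6.15 ± 0.55 CPM in DMSO (SD, n = 3 each). The microglia and macrophage sum was nearly all Tmem119, at 6.93 ± 0.77 CPM in DTG and 26.7 ± 3.0 CPM in DMSO (SD, n = 3 each), with P2ry12 at 0. Pericyte markers summed to 0.539 to 0.863 CPM in DTG and 0.322 to 0.388 CPM in DMSO libraries, with Kcnj8, Rgs5 and Higd1b at 0. Neuron markers summed to 2.21 to 6.04 CPM in DTG and 0.158 to 0.322 CPM in DMSO libraries, mostly Tubb3 (5.43 log2, edgeR adjusted p = 2e-05), with Map2 at 0, and the part of these shifts in the results was not tested. In bulk RNA, fewer cells of a type and less RNA per cell cannot be told apart.

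Among the 10 genes 6 were higher and 2 lower in DTG, and 2 did not pass. Over all genes tested, 27.4% were higher and 29.3% lower (56.7% in either direction), so that the share of members that were higher, 6 of 10, lay above the share of all genes, and the share that were lower, 2 of 10, did not. The median change of the members was 0.50 log2, against -0.01 for all genes tested. Of all calls, 48.3% were higher with TMM, 38.2% with upper-quartile factors and 30.7% with library size alone, a scaling that moved the median over all genes by -0.17 log2. DTG and DMSO libraries did not overlap in 9 members (64.2% of all genes), 7 of them higher in DTG (31.1% of all genes) and 2 lower (33.1%). The exception was Atf6b.

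**Figure D1:**
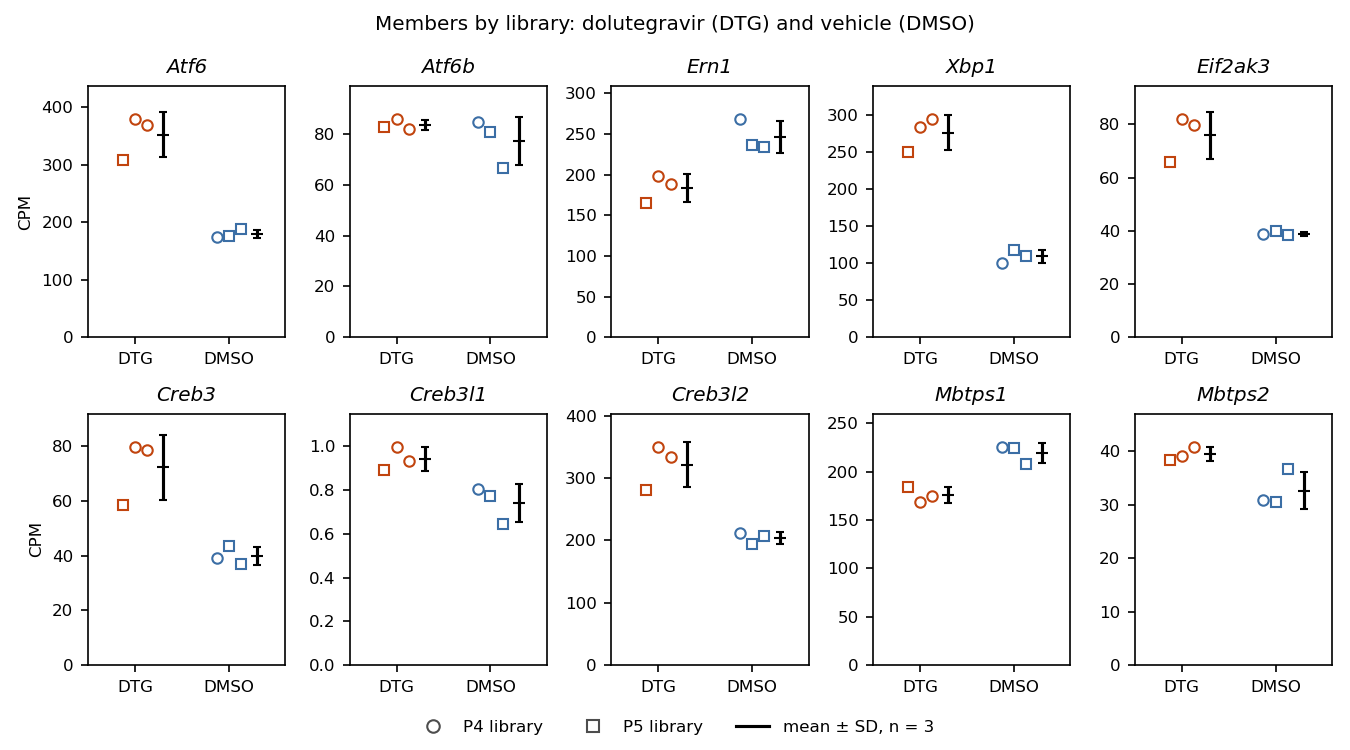
CPM of each member in each library, with DTG on the left and DMSO on the right of each panel. Circles are P4 and squares P5 libraries, black bars are the mean ± SD (n = 3), and each axis starts at 0. DTG and DMSO separate in every panel but that of Atf6b, and DTG replicate 1, the P5 square, is the lowest DTG library in each of the 6 genes that were higher.

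The ATF6 gene roughly doubled its level while its paralog did not pass the test. Atf6 (ENSMUSG00000026663) was at 308, 380 and 369 CPM in DTG replicates 1, 2 and 3, against 174, 177 and 188 CPM in DMSO replicates 1, 2 and 3. The lowest DTG library was well above the highest DMSO library. The means were 352.5 ± 38.8 CPM in DTG and 179.8 ± 7.47 CPM in DMSO (SD, n = 3 each). Atf6 thus rose by 0.97 ± 0.09 log2 (SE, edgeR adjusted p = 1.45e-05). It was 1.10 between the P4 libraries alone and 0.76 between the P5 libraries alone.

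Atf6b (ENSMUSG00000015461), which encodes a related protein with the same route of cleavage, was at 82.7, 86.1 and 82.1 CPM in DTG and at 84.7, 80.7 and 66.5 CPM in DMSO libraries. The groups overlapped, with DMSO replicate 1 inside the DTG range and DMSO replicate 3 apart below it. The change was 0.11 ± 0.09 log2 and did not pass (edgeR adjusted p = 0.329). It was -0.01 between P4 libraries and 0.17 between P5 libraries, and the sign turned with library size alone (-0.06). Per kilobase of exon, Atf6 made up 57.0%, 61.1% and 61.5% of the summed level of the pair in DTG libraries, against 42.2%, 43.8% and 50.2% in DMSO libraries. The share of Atf6 was thus above that of Atf6b in each DTG library, and in DMSO it was below it in 2 of 3 libraries. A share within a library does not depend on how libraries are scaled.

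The IRE1 gene moved the other way. Ern1 (ENSMUSG00000020715) was at 165, 199 and 188 CPM in DTG and at 269, 237 and 234 CPM in DMSO libraries. Each DTG library was below each DMSO library, and DTG replicate 1 was the lowest of all. The means were 183.8 ± 17.4 CPM in DTG and 246.4 ± 19.4 CPM in DMSO (SD, n = 3 each), so Ern1 fell by 0.42 log2 (SE 0.09, edgeR adjusted p = 0.00298). Between P4 libraries the change was -0.47 and between P5 libraries -0.52.

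Xbp1, whose mRNA IRE1 cuts, had the largest change of the 10 genes. Xbp1 (ENSMUSG00000020484) was at 250, 284 and 295 CPM in DTG libraries, against 100, 118 and 110 CPM in DMSO libraries. The lowest DTG library held more than double the level of the highest DMSO library. The log2 change was 1.34 ± 0.09 (SE, edgeR adjusted p = 2.07e-06), while 1.53 was found between P4 and 1.13 between P5 libraries, and 4.07% of all genes tested had a larger increase. The log2 ratio of Xbp1 to Ern1 counts was 0.60, 0.52 and 0.65 in DTG libraries and -1.42, -1.01 and -1.09 in DMSO libraries, a difference of 1.76. Of 6 pair ratios computed this was the largest difference, and with 3 against 3 the two-sided exact permutation test cannot go below p = 0.1, its value here (adjusted p = 0.12 over the 6 ratios).

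The PERK gene rose about as much as Atf6. Eif2ak3 (ENSMUSG00000031668) was at 65.9, 82.1 and 79.6 CPM in DTG and at 38.7, 39.8 and 38.2 CPM in DMSO libraries. The DMSO libraries lay close together, with a coefficient of variation of 2.07%, and the DTG libraries were spread more widely, at 11.5%. The log2 change was 0.96 ± 0.09 (SE, edgeR adjusted p = 1.62e-05). The P4 libraries alone gave 1.06 and the P5 libraries alone 0.76.

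The make-up of the sensor mRNAs differed between the groups in every library. Among Atf6, Ern1 and Eif2ak3, per kilobase of exon, Ern1 made up 25.97% ± 0.47 in DTG and 47.9% ± 2.5 in DMSO libraries (SD, n = 3 each). Atf6 made up 56.0% ± 0.3 in DTG and 39.4% ± 2.3 in DMSO libraries, and Eif2ak3 18.0% ± 0.2 in DTG and 12.8% ± 0.5 in DMSO libraries. For each of these genes the DTG and DMSO libraries did not overlap (p = 0.1 in a two-sided exact permutation test, which 3 against 3 cannot go below). The P5 library of DTG, which stood apart from the other DTG libraries in CPM, did not in these shares, at 55.7% for Atf6 beside 56.0% and 56.3%. The log2 ratio of Ern1 to Eif2ak3 counts was 1.28 ± 0.04 in DTG and 2.66 ± 0.12 in DMSO (SD, n = 3 each), a difference of -1.38 (exact permutation p = 0.1, adjusted p = 0.12).

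PERK is 1 of 4 kinases that phosphorylate eIF2-alpha. The others answer to haem shortage (Eif2ak1), double-stranded RNA (Eif2ak2) and amino acid shortage (Eif2ak4). Per kilobase of exon Eif2ak3 made up 20.8%, 27.3% and 25.7% of the 4 kinase mRNAs in DTG libraries, against 12.4%, 12.6% and 11.2% in DMSO libraries. Eif2ak2, an interferon-induced gene, was at 112 ± 15.2 CPM in DTG and 152 ± 13.9 CPM in DMSO (SD, n = 3 each) and fell by 0.45 log2 (SE 0.11, edgeR adjusted p = 0.00505). Eif2ak1 and Eif2ak4 were at -0.12 and 0.05 log2, without passing (edgeR adjusted p = 0.151 and 0.565), although Eif2ak1 passed as lower with library size alone (-0.29 log2, adjusted p = 0.00375) and with upper-quartile factors (-0.22 log2, adjusted p = 0.0199). Among the 4 kinase genes Eif2ak3 was thus the 1 that was higher.

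**Figure D2:**
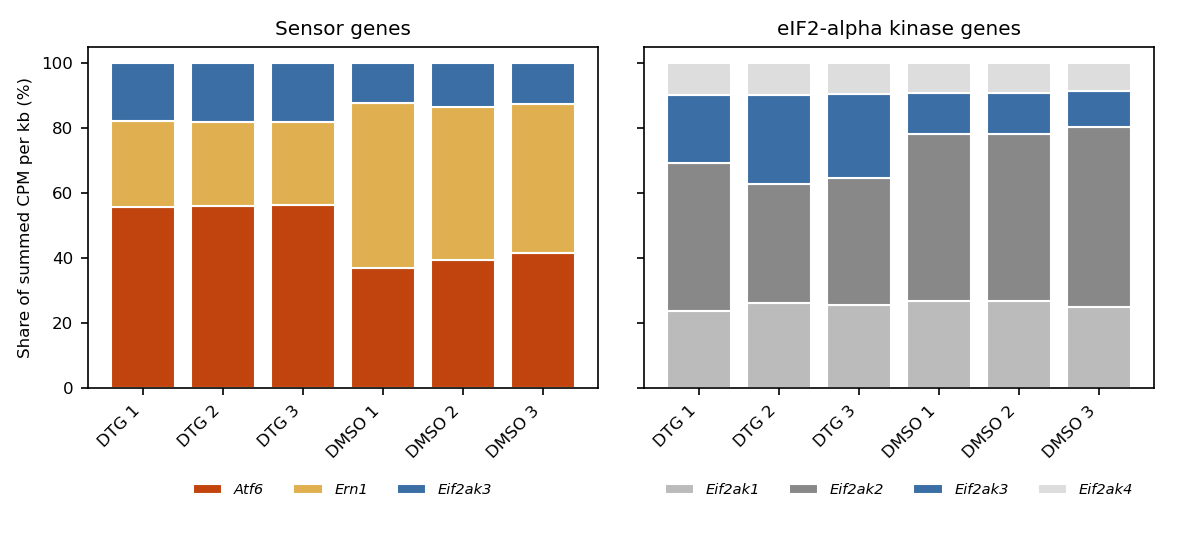
Stacked bars of the share of each gene in the summed CPM per kilobase of exon in each library, DTG libraries left of DMSO libraries. The left panel holds the sensor genes and the right panel the kinases of eIF2-alpha. The Ern1 share lies between 25.5% and 26.4% in DTG and between 45.8% and 50.7% in DMSO libraries.

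The CREB3 group encodes ER-bound factors that are released by the same proteases and act on secretory pathway genes. Creb3 (ENSMUSG00000028466) was at 58.5, 79.9 and 78.5 CPM in DTG libraries, against 39.0, 43.5 and 37.0 CPM in DMSO libraries. The DTG libraries were all higher, and DTG replicate 1 lay nearer to the DMSO libraries than to the other DTG libraries. The log2 change was 0.86 ± 0.12 (SE, edgeR adjusted p = 0.000193), and it was 1.02 within P4 and 0.54 within P5 libraries. In the GENCODE annotation of GRCm38, exons of Creb3 overlap those of Tln1 and Gba2 on the other strand. Tln1 held 210090 counts over the 6 libraries against 17173 for Creb3 and rose by 0.37 log2 (edgeR adjusted p = 0.00695), and Gba2 held 3011 counts and fell by 0.54 log2 (adjusted p = 0.00296). The kit keeps strand but the strand setting of the counting is not given in the sources used here, so a part of the Creb3 value may belong to these neighbours.

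Creb3l2 (ENSMUSG00000038648), known for its role in the secretion of cartilage matrix, was at 282, 351 and 333 CPM in DTG and at 212, 194 and 207 CPM in DMSO libraries. All DTG libraries were above all DMSO libraries. It rose by 0.66 ± 0.09 log2 (SE, edgeR adjusted p = 0.00019). The P4 libraries gave 0.69 and the P5 libraries 0.49.

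Creb3l1 (ENSMUSG00000027230), a factor of collagen-producing cells such as osteoblasts, was close to the limit of detection. It had 48, 51 and 45 counts in DTG and 41, 46 and 28 counts in DMSO libraries. In CPM this was 0.892, 1.00 and 0.933 in DTG against 0.807, 0.775 and 0.645 in DMSO libraries. The groups did not overlap, but the change of 0.34 ± 0.20 log2 did not pass (edgeR adjusted p = 0.184). Creb3l1 made up 0.441% of the group of Creb3, Creb3l1 and Creb3l2 per kilobase in DTG and 0.576% in DMSO libraries, and the share of Creb3l2 was 55.0% ± 1.6 in DTG and 58.3% ± 3.0 in DMSO (SD, n = 3 each, exact permutation p = 0.2).

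The relatives that are restricted to other tissues were scarcely expressed. Ern2, the IRE1 gene of mucosal epithelium, had 2 counts in the DTG and 1 in the DMSO libraries together and was not tested. Creb3l3, the liver and gut member of the family, had 125 counts in DTG and 301 in DMSO libraries and fell by 1.25 log2 (SE 0.26, edgeR adjusted p = 0.0025). Creb3l4 had 260 counts in DTG and 162 in DMSO libraries and rose by 0.70 log2 (SE 0.20, edgeR adjusted p = 0.0138). Its call was lost in 1 of the 6 fits that left out a library, without DTG replicate 3 (adjusted p = 0.0706).

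The genes of the proteases that cut these factors diverged. Mbtps1 (ENSMUSG00000031835), the site-1 protease, was at 184, 168 and 174 CPM in DTG libraries, against 226, 224 and 208 CPM in DMSO libraries. Each DTG library was below each DMSO library. Mbtps1 fell by 0.32 log2 (SE 0.07, edgeR adjusted p = 0.00424). The P4 libraries gave -0.40 and the P5 libraries -0.23.

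Mbtps2 (ENSMUSG00000046873), the site-2 protease, was at 38.3, 39.1 and 40.9 CPM in DTG and at 30.9, 30.5 and 36.6 CPM in DMSO libraries. The groups did not overlap, but DMSO replicate 3 lay closer to the DTG libraries than to the other DMSO libraries. The log2 change was 0.27 ± 0.09 (SE, edgeR adjusted p = 0.0251), 0.37 within P4 and 0.19 within P5 libraries. This call was lost with library size alone (0.10 log2, adjusted p = 0.345), with upper-quartile factors (0.18 log2, adjusted p = 0.111) and without DTG replicate 3 (adjusted p = 0.078), DMSO replicate 1 (0.0906) or DMSO replicate 2 (0.101). Exons of Yy2 overlap Mbtps2 on the same strand in the GENCODE annotation, with 254 counts against 11001 for Mbtps2. Per kilobase Mbtps1 made up 89.1% ± 0.6 of the pair in DTG and 92.4% ± 1.1 in DMSO libraries (SD, n = 3 each, exact permutation p = 0.1). Relative to its protease, the Atf6 mRNA was more abundant in each DTG library than in each DMSO library, since the log2 ratio of Atf6 to Mbtps1 counts was 1.00 ± 0.23 in DTG and -0.29 ± 0.13 in DMSO (SD, n = 3 each, exact permutation p = 0.1, adjusted p = 0.12).

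**Figure D3:**
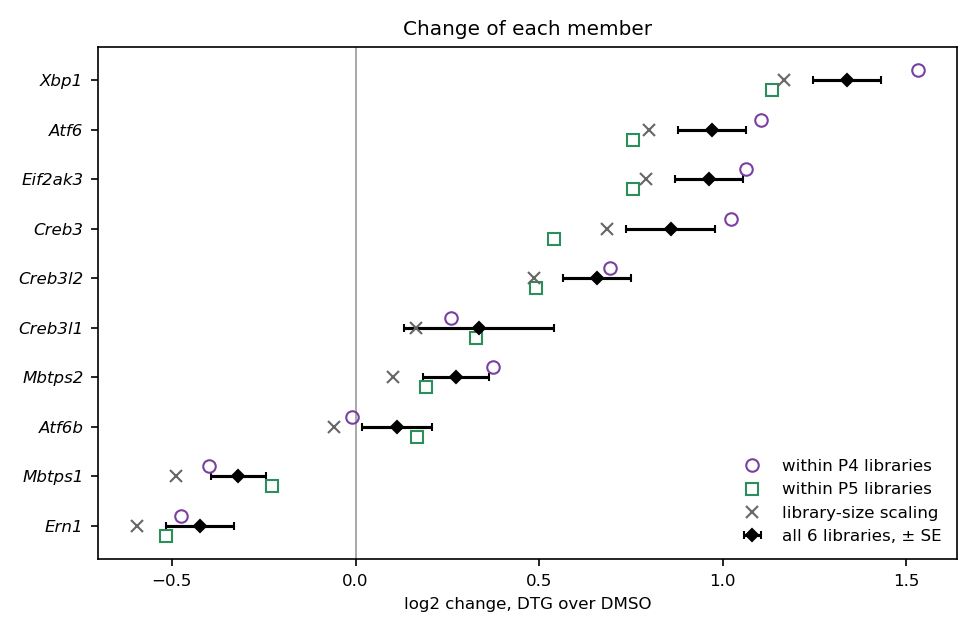
The log2 change of each member, DTG over DMSO, from the fit of all 6 libraries (diamonds, ± SE), within the P4 libraries (circles), within the P5 libraries (squares) and with library-size scaling (crosses). Xbp1, Atf6, Eif2ak3, Creb3 and Creb3l2 lie right of 0 in all of these, Ern1 and Mbtps1 lie left of 0 in all of these, and Atf6b falls on both sides.

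All 6 members that were higher had their lowest DTG value in DTG replicate 1, as did 72.9% of all genes called higher. All 6 changed more within P4 than within P5 libraries, and the share of all genes that did so was not computed. DTG replicate 1 is the only DTG library of P5, so this is not independent of its low values. The difference between the tags was tested as an interaction of treatment and tag. With 2 residual degrees of freedom, edgeR's quasi-likelihood test called 0 genes for it (0% of those tested, and 1351 at an unadjusted p under 0.05), and the smallest adjusted p among the members was 0.446, for Xbp1. At an unadjusted p under 0.05 stood 4 of the 10 members, namely Atf6, Xbp1, Eif2ak3 and Creb3, beside 1351 of the 14101 genes tested. DMSO replicate 1 is likewise the only DMSO library of P4, so the interaction rests on single libraries.

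Levels can be ranked across genes only per length of exon. In DTG libraries Xbp1 stood at the top with 116 ± 9.8 CPM per kilobase, and no library of it overlapped the next gene, Atf6, at 48.7 ± 5.4. Atf6, Creb3l2 (45.4 ± 5.1), Mbtps1 (40.4 ± 1.9) and Creb3 (36.9 ± 6.1) followed, each overlapping its neighbour, and Creb3 overlapped Atf6b (32.5 ± 0.8). Below them, without overlap between neighbours, came Ern1 (22.5 ± 2.1), Eif2ak3 (15.7 ± 1.8), Mbtps2 (4.96 ± 0.17) and Creb3l1 (0.362 ± 0.021, SD, n = 3 each). In DMSO libraries Mbtps1 (50.5 ± 2.3) and Xbp1 (45.8 ± 3.7) led and overlapped. Ern1 (30.2 ± 2.4), Atf6b (30.0 ± 3.7) and Creb3l2 (28.8 ± 1.3) came next with overlap between neighbours, followed without overlap by Atf6 (24.8 ± 1.0), Creb3 (20.4 ± 1.7), Eif2ak3 (8.04 ± 0.17), Mbtps2 (4.11 ± 0.43) and Creb3l1 (0.285 ± 0.033, SD, n = 3 each). Atf6 thus stood in place 2 in DTG and place 6 in DMSO, and Ern1 in place 7 in DTG and place 3 in DMSO. The lengths are exon unions of the GENCODE annotation, and which isoforms the cells made was not measured.

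**Figure D4:**
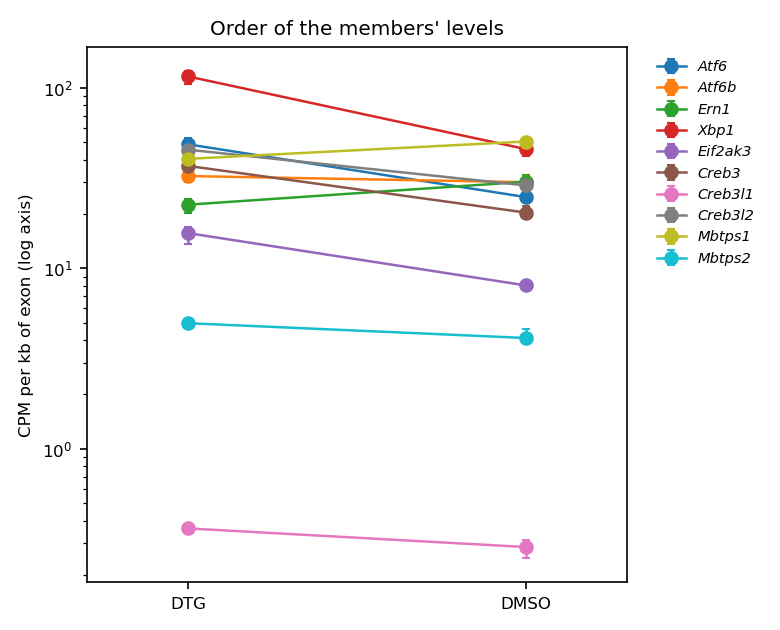
Mean CPM per kilobase of exon of each member in DTG (left) and DMSO (right) on a log axis, with bars from the lowest to the highest of 3 libraries. Lines join the values of 1 gene. The lines of Ern1 and Mbtps1 run upward to DMSO, and those of Xbp1, Atf6 and Eif2ak3 run downward.

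The proteins that hold, cut or carry the sensors were listed as 23 partner genes. Of these 16 were higher and 1 lower in DTG, with a median of 0.71 log2, beside 27.4% higher, 29.3% lower and a median of -0.01 log2 over all genes tested. The counts were 13 and 5 with library size alone (median 0.54) and 14 and 4 with upper-quartile factors. Of the 16 higher partners 9 are also in the target lists given further on (Hspa5, Sdf2l1, Dnajc3, Dnajb9, Pdia6, Syvn1, Wfs1, Sec61a1 and Ppp1r15a), and among the 14 partners in no other list 7 were higher and 1 lower. The 3 partners with the largest changes were Sdf2l1, Hspa5 and Dnajb9. Hspa5, which encodes BiP, rose by 4.22 log2, its cochaperone gene Dnajb9, a repressor of IRE1, by 4.06 log2, and Sdf2l1, a partner of ER chaperones, by 4.55 log2 (edgeR adjusted p = 2.92e-08, 3.72e-07 and 2.8e-09). The disulfide isomerases Pdia5 and Pdia6, which act on ATF6 and IRE1, rose by 2.98 and 2.73 log2, and Syvn1 and Wfs1, whose products promote the degradation of IRE1 and ATF6, by 2.84 and 2.70 log2 (edgeR adjusted p = 5.45e-08, 2.73e-08, 2.38e-07 and 4.23e-07).

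Among the other partners some did not pass and some rose. The RNA ligase gene Rtcb, which joins the Xbp1 ends after IRE1 has cut, was at 219 ± 7.0 CPM in DTG and 217 ± 14.0 CPM in DMSO (SD, n = 3 each), a change of 0.02 ± 0.08 log2 (edgeR adjusted p = 0.856). The ligase cofactor gene Zbtb8os (archease) rose by 0.29 ± 0.10 log2 (edgeR adjusted p = 0.0227), but its call was lost with library size alone (0.12 log2, adjusted p = 0.292), with upper-quartile factors (0.20 log2, adjusted p = 0.0949), without DTG replicate 3 and without DMSO replicate 1 (adjusted p up to 0.0864). Traf2, an adaptor that binds active IRE1, differed by -0.08 ± 0.08 log2 (edgeR adjusted p = 0.45). Of the NF-Y subunits, with which ATF6 binds DNA, Nfya and Nfyb rose by 0.45 and 0.46 log2 (edgeR adjusted p = 0.000386 and 0.00895), while Nfyc differed by -0.18 log2 (adjusted p = 0.113). With library size alone the call of Nfyb was lost (0.28 log2, adjusted p = 0.0583), and Traf2, Nfyc, Nck1 and Ppp1r15b passed as lower, the last 3 of them with upper-quartile factors too. Yy1 was the 1 partner that was lower (-0.20 log2, edgeR adjusted p = 0.0315), a call lost without any 1 of the DTG libraries and without DMSO replicate 1 (adjusted p up to 0.229). Eif2s1, which encodes eIF2-alpha, rose by 0.73 log2 (edgeR adjusted p = 0.00013). Of the phosphatase subunits that act on its product, the stress-induced Ppp1r15a rose by 3.48 log2 (edgeR adjusted p = 7.47e-05) and the constitutive Ppp1r15b differed by -0.12 log2 (adjusted p = 0.183).

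The site proteases also serve sterol sensing, and 7 genes of that system were measured. Of these 1 was higher and 2 lower, with a median of 0.01 log2. Over all genes tested 27.4% were higher and 29.3% lower, with a median of -0.01 log2. The share of lower genes in the system thus lay near that of all genes. Scap, the escort of the SREBP factors to the proteases, fell by 0.38 log2, and Gnptab, whose product site-1 protease cuts, fell by 0.34 log2 (edgeR adjusted p = 0.00127 and 0.0037). Insig1 rose by 0.72 log2 (adjusted p = 7.23e-05). The substrate genes Srebf1 and Srebf2 were at 0.03 and 0.17 log2, without passing (edgeR adjusted p = 0.734 and 0.161).

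Target genes of the factors were listed for each branch. Of 12 listed ATF6 targets 11 were tested and all 11 were higher, beside 27.4% of all genes tested. Their median was 3.91 log2, against 0.97 log2 for Atf6 itself. Creld2 led with 5.53 log2, followed by Pdia4 with 4.80 and Sdf2l1 with 4.55 (edgeR adjusted p = 4.33e-08, 2.38e-09 and 2.8e-09). All 15 listed XBP1 targets were higher, with a median of 1.66 log2 beside 1.34 for Xbp1. They ranged between 0.43 for Edem2 and 4.06 for Dnajb9, and Edem2, Derl2 (0.67), Ssr1 (0.99) and Hspa13 (1.24) were below the value of Xbp1. The earlier results on these libraries were known when these lists were made, so they are no independent evidence of direction.

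All 6 listed PERK outputs were higher, beside 27.4% of all genes tested. Their median was 3.23 log2, against 0.96 for Eif2ak3. Ddit3, which encodes CHOP, led with 4.91 log2 (edgeR adjusted p = 1.7e-06). This list and those of CREB3 family targets and IRE1 decay substrates were also made with earlier results known. They are no independent evidence of direction. Of 5 CREB3 family targets 4 were tested and all 4 were higher. The coat genes Sec24d and Sec23a rose by 2.59 and 0.87 log2 (edgeR adjusted p = 6.37e-07 and 0.00027), and Arf4 by 1.08 log2 (adjusted p = 4.33e-06). Sec24d is also in the XBP1 list. The collagen gene Col1a1 had 128 counts in DTG and 68 in DMSO libraries and rose by 0.93 log2 (adjusted p = 0.0179), a call lost without DTG replicate 2 and without DMSO replicate 3 (adjusted p up to 0.0739).

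Substrates of IRE1-dependent decay, mRNAs other than Xbp1 that IRE1 is reported to cut, went the other way. Of 7 listed, 5 were tested, 4 were lower and 0 higher in DTG, with a median of -0.57 log2. Galnt10 fell by 1.09 log2, Bloc1s1, the most used marker of this decay, by 0.97 log2 and Hgsnat by 0.57 log2 (edgeR adjusted p = 6.57e-06, 0.000136 and 0.000447). Bloc1s1 was at 25.6, 21.6 and 23.2 CPM in DTG libraries, against 50.04, 51.7 and 36.6 CPM in DMSO libraries. Sparc fell by 0.22 log2 (adjusted p = 0.0424, lost without DTG replicate 2 or 3 and without DMSO replicate 1 or 2, with adjusted p up to 0.227) and Pmp22 differed by 0.16 log2 without passing (adjusted p = 0.337). With 29.3% of all genes lower in DTG, decay and lower transcription cannot be told apart in these counts.

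**Figure D5:**
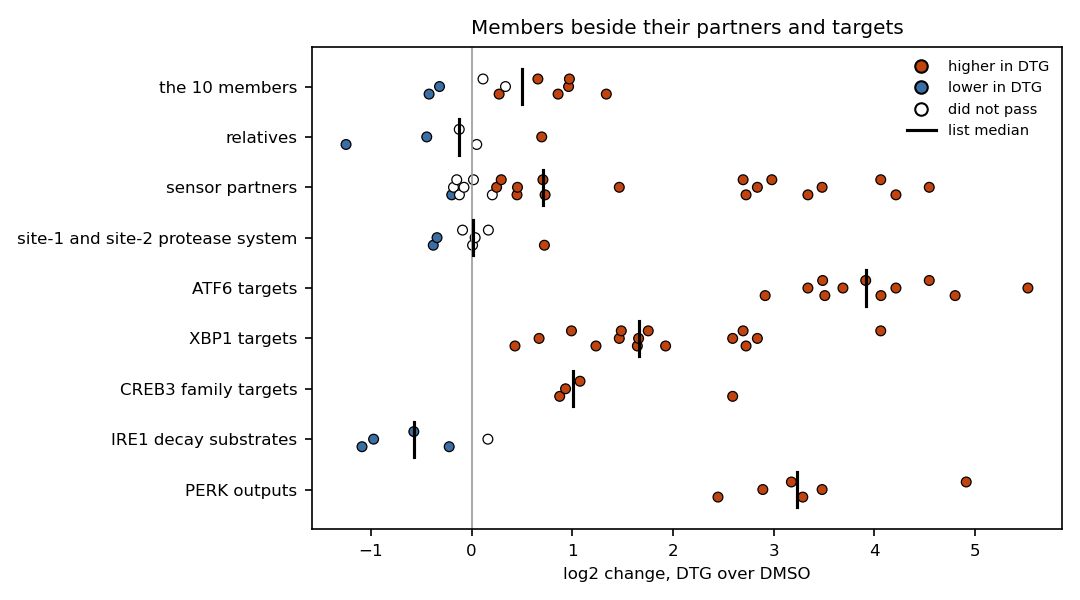
The log2 change, DTG over DMSO, of every tested gene of each list, with the members at the top. Red points were higher and blue points lower in DTG, white points did not pass, and black bars are medians. The members span -0.42 to 1.34, and the ATF6 targets span 2.92 to 5.53.

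For Atf6, Ern1, Eif2ak3, Xbp1 and Creb3l1, the genes that moved most like them over the 6 libraries were ranked by Pearson's r of log2(CPM + 0.5). The ranking took in 9918 genes of at least 5 CPM on average (9919 for Creb3l1). The genes most like Atf6 were Ibtk, Hbs1l and Ipo5 (r = 0.9999, 0.9998 and 0.9996). Those most like Eif2ak3 were Litaf, Mthfd2 and Gars (r = 0.9998, 0.9997 and 0.9997), and those most like Xbp1 were Gatc, Chchd4 and Tvp23b (r = 0.9997, 0.9994 and 0.999). Such values are common with libraries in 2 separate groups, as 1774 genes exceeded r = 0.95 with Atf6, 1843 with Eif2ak3 and 1707 with Xbp1. Ern1 had fewer such genes, 174, led by Sik3, Crtc1 and Pcx (r = 0.9972, 0.9966 and 0.9963), and Creb3l1 had 358, led by Stk19, Tada3 and Stk11 (r = 0.9979, 0.997 and 0.9968). The points share libraries and group, and no p is given.

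Promoters were read for 8 of the 10 members from RefSeq (GRCm38.p6), to show which stress elements they hold. The windows took in 250 bases before and 50 after the annotated start. No window was available for Atf6 or Creb3l1. The windows were searched on both strands for the ER stress element ERSE (CCAAT and CCACG with any 9 bases between them), ERSE-II (ATTGG and CCACG with any 1 base between them), the XBP1 element UPRE (TGACGTGG), the cyclic AMP element CRE (TGACGTCA), the C/EBP-ATF element TGATGNAAN, and for CCAAT and CCACG, which are parts of ERSE. None of the 8 windows held ERSE, ERSE-II, UPRE, CRE or the C/EBP-ATF element. These occur in 0.119%, 0.0365%, 0.676%, 1.79% and 3.95% of 32851 windows. By comparison, the window of Hspa5 held 1 ERSE and that of Herpud1, an ATF6 target that rose by 4.07 log2 (edgeR adjusted p = 4.24e-06), held 1 ERSE-II. These are shown as the letters that the member windows lacked, at chr2:34772025-34772043 and chr8:94386377-94386387, both on the plus strand.
Hspa5: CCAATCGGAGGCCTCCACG
Herpud1: ATTGGGCCACG

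Single parts of ERSE were present in several member windows. The Eif2ak3 window held 6 matches to CCAAT, as many as or more than which occur in 0.0791% of all windows, whereas 37.4% hold at least 1. The upstream 250 bases lie at chr6:70844265-70844514 on the plus strand, and capitals mark CCAAT or its reverse complement.
Eif2ak3: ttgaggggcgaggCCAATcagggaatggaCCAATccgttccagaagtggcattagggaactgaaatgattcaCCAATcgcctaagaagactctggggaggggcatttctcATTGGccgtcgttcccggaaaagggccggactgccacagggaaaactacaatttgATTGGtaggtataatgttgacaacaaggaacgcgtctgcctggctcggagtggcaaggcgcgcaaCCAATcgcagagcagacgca
The Creb3 window held 3 matches to CCACG, as many as or more than which occur in 3.05% of windows, whereas 32.8% hold at least 1. Its upstream 250 bases lie at chr4:43562408-43562657 on the plus strand, and capitals mark CCACG or its reverse complement.
Creb3: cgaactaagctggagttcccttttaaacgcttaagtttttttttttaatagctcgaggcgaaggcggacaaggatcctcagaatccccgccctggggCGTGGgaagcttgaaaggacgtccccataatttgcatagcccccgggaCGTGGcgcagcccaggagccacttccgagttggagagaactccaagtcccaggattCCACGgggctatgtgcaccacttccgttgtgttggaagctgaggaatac
Creb3l2 held 2 and Atf6b 1 match to CCAAT, and Mbtps1 held 2 and Ern1 1 match to CCACG. The windows of Xbp1 and Mbtps2 held neither. Members that were higher (Eif2ak3, Creb3) and members that were lower (Ern1, Mbtps1) both held matches, and a match or its absence in a window says nothing of binding.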

How the data were processed

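The deposited data are raw counts, whole numbers per Ensembl gene with no normalization, on the build GRCm39 per the submitters' processing notes. Per the labels' protocols RNA was isolated with TRIzol and 2 µg entered the TruSeq Stranded mRNA kit. Aligner, counter, strand setting and annotation were not given in the sources used here. For DTG replicate 1 the column reads DIG, and its label holds the same name.

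A reference table named 89.2% of identifiers, and 145 of 146 list entries matched. Genes were kept by filterByExpr, scaled by TMM and tested with edgeR 4.0.16 in R 4.3.3, group being the only term. Standard errors are the absolute log2 change over the root of F. The pipeline was run on simulated counts in which few genes changed. Scaling under a change as wide as in these data was not tested by it. Pair ratios used a prior count of 0.5 and exact permutation tests (scipy 1.17.1). Changes within a tag are log2 ratios of mean CPM, with no test. Exon lengths came from GENCODE M21 (GRCm38). Libraries of a group differed by more than sampling noise, with a chi-square per gene of 8.65 to 57.1.

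Alternatives were DESeq2 1.42.0, limma-voom (limma 3.58.1), other scalings and filters, no robust estimation, a threshold of 0.01, a replicate block, a term for the tag, and fits without each library. The members and lists were chosen with earlier results of these data known. The rule named all members, and of each list the 3 passing genes with the largest change. Other list genes were named after their values were seen.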

Additional observations from a re-analysis of the deposited data

How the results depend on the processing

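Atf6, Xbp1, Eif2ak3, Creb3, Creb3l2, Ern1 and Mbtps1 kept direction and call in all alternatives run with a test, namely DESeq2, limma-voom, other scalings, filters and thresholds, the block, the tag and each left-out library, and kept direction within each tag. Mbtps2 lost its call in 6 of 19 alternatives, the cause of which was not tested. These 19 include the changes within each tag, which had no test and could not lose a call. Atf6b, never past the threshold, turned to -0.0586 log2 with library size alone and -0.011 within P4 libraries. Creb3l1 had at most 51 counts in a library, and a filter at 1 CPM removed it. Called genes numbered 7990, and 6470 to 8518 without 1 library. Libraries of the same title number deviated with correlations of -0.30, -0.11 and -0.07, and 0 of 6 correlated best with its own number. Every same-numbered pair carries opposite tags, so pairing by title number cannot be told apart from the tag. With the replicate number as a block 7271 genes were called and no member changed its call, but Zbtb8os, Yy1 and Sparc lost theirs (adjusted p = 0.0511, 0.0816 and 0.115). The count of lower sensor partners was 1, but 5 with library size alone, 4 with upper-quartile factors and 0 to 2 without 1 library. Without 1 library, 0 to 1 relatives and 1 to 2 genes of the protease system were higher. The 6 pair ratios kept their sign throughout.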
